A study of Mus musculus with 4 samples.

Results

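The nuclear genes of oxidative phosphorylation were taken by symbol from the gene list of 2 single-cell RNA libraries of mouse tumour-infiltrating cells. They were the symbols that begin with Ndufa, Ndufb, Ndufc, Ndufs, Ndufv, Sdh followed by a to d, Uqcr, Cox4i, Cox5, Cox6, Cox7, Cox8 or Atp5, without pseudogene symbols ending in -ps. The rule gave 97 of 32285 genes: 46 of complex I, 8 of complex II, 8 of complex III, 18 of complex IV and 17 of ATP synthase. By its letters it also took 12 assembly factors (8 Ndufaf and 4 Sdhaf genes), so that 85 members were subunit or subunit-like genes. The symbol rule itself uses no measured value.

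Both groups were wild-type B6 mice of the Thy1.2 allele with chimeric tumours. The transferred cells carried the Thy1.1 allele and the Pmel-1 receptor, which is specific for gp100 of melanocytes. They were given with adjuvant, as Tc1 cells in 1 group and as Tc9 cells, an interleukin-9-producing kind of CD8 T cell, in the other. On day 30 after inoculation the tumours of 3 mice per group were pooled and CD4+ T cells were sorted from a Percoll-enriched fraction. A single library of RNA and 1 of T cell receptors was made per group, so there was no untreated group and no replicate. Differences between Tc1 and Tc9 therefore compare 2 libraries of pooled mice, no test could be made, and the 95% intervals cover counting error only.

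Oxidative phosphorylation passes electrons from NADH (complex I) and succinate (complex II, which is also an enzyme of the citrate cycle) through complex III and cytochrome c to oxygen at complex IV. The proton gradient that complexes I, III and IV build drives ATP synthase. Most subunits are encoded in the nucleus and made on cytosolic ribosomes, while the core of complexes I, III, IV and ATP synthase also needs subunits encoded by mitochondrial DNA. All subunits of complex II are nuclear. In T cells the pathway is known to serve resting and memory cells and to be built up together with glycolysis during activation.

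The level of a gene or a sum is given in CPM, the unique molecular identifiers (UMIs) of the gene or sum per 1000000 UMIs of the cells of a gate. A UMI marks 1 captured molecule read at its 5′ end, so levels were not divided by transcript length. Whether capture depends on length was not tested. Of 13406 Tc1 barcodes with 106053410 UMIs and 8449 Tc9 barcodes with 50713493 UMIs, 11933 and 8204 passed the filters, and gates on marker genes then held 7681 (64.4%) and 7601 (92.6%) of them. The T cell gate (Cd3 genes) held 5555 cells in Tc1 and 7479 in Tc9, with median depths of 5059 and 5414 UMIs. The natural killer (NK) gate held 27 and 48 cells, the macrophage gate (C1q genes) 1749 and 40, and the dendritic gate 151 and 34. The melanoma gate (Pmel, Dct, Mlana, Tyrp1, Tyr) held 199 cells in Tc1 and none in Tc9. Against the label of sorted CD4+ T cells, 46.6% of the kept Tc1 barcodes and 91.2% of the kept Tc9 barcodes were in the T cell gate, and T cells with Cd8a or Cd8b1 but no Cd4 UMI numbered 2301 in Tc1 and 456 in Tc9. The libraries shared 148 barcode strings, and 2 TRB receptor chains were found in both, on 54 T cells of Tc1 and 485 of Tc9.

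Across the immune gates the members took a similar share of the transcriptome, close to 2% of all UMIs. In Tc1 their sum was 20257 CPM in the T cell gate, 22507 in the NK gate, 21352 in the macrophage gate and 20002 in the dendritic gate. In Tc9 it was 16824 CPM in the T cell gate, 19163 in the NK gate, 18971 in the macrophage gate and 19827 in the dendritic gate. Melanoma cells of Tc1 stood apart at 45171 CPM (4.52% of their UMIs). ATP synthase was the largest share of the sum in all 9 filled gates, between 31.1% and 34.7%, and complex II the smallest, between 1.85% and 2.66%.

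**Figure D1:**
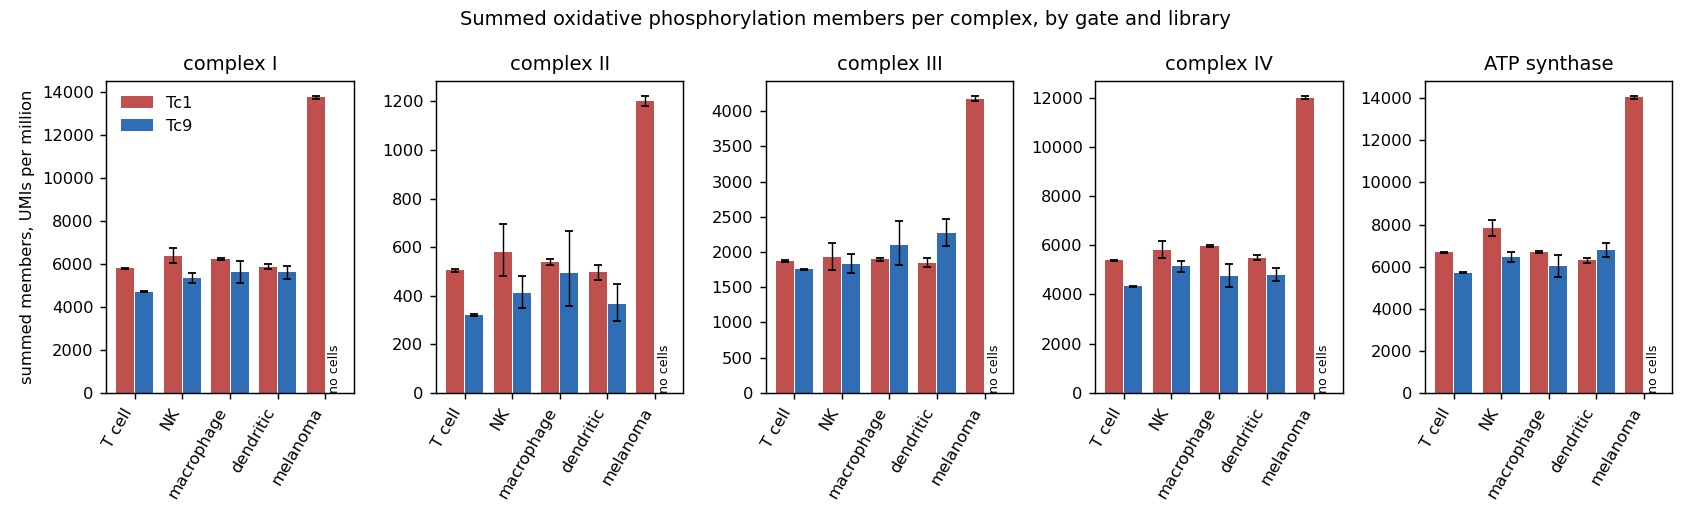
Summed members per complex (CPM, linear axes from 0) in 5 marker gates of the Tc1 and Tc9 libraries; error bars are exact 95% Poisson intervals, which cover counting error only. In the T cell gate each Tc9 bar lies below its Tc1 bar, complex II at 321 against 505 CPM, and the melanoma bars of Tc1 are the highest in every panel.

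In the T cell gate the members were lower in Tc9, with a log2 ratio of Tc9 over Tc1 of -0.27 (-0.27 to -0.26) for their sum. The size differed among the complexes. Complex II had 505 CPM in Tc1 and 321 in Tc9 (log2 ratio -0.65, -0.68 to -0.62). Complex IV had 5389 and 4339 CPM (-0.31, -0.32 to -0.30), and complex I had 5796 and 4710 (-0.30, -0.31 to -0.29). ATP synthase had 6690 and 5700 CPM (-0.23, -0.24 to -0.22). Complex III moved least as a sum, with 1877 CPM in Tc1 and 1754 in Tc9 (-0.10, -0.11 to -0.08). The median log2 ratio of its members was -0.38, against -0.41 in complex IV and -0.45 in ATP synthase. Only the intervals of complex I and complex IV overlapped, and the intervals cover counting error only.

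The T cell result varied with the weighting of cells and the scale. As a mean over cells, in which deep cells count no more than shallow ones, the log2 ratio of the sum was -0.17, and after scaling by the median ratio of all genes, which lay at -0.10, it was -0.17. Marker RNA of other cell types also differed between the 2 libraries. In the T cell gate haemoglobin genes summed to 1949 CPM in Tc1 and 0.251 in Tc9, and the 5 melanoma markers to 57.8 and 1.802 CPM. The macrophage genes C1qa, C1qb and C1qc summed to 113 and 4.23 CPM, and the genes Lyz2, Apoe, Tyrobp and Fcer1g to 2817 and 63.2 CPM. With the RNA of other cells subtracted, its share taken from those 4 genes at 26.2% of T cell UMIs in Tc1 and 3.34% in Tc9, the log2 ratio was -0.07. With the share taken from Apoe alone (11.5% and 3.005%) it was -0.20, and from the C1q genes alone (4.37% and 2.44%), which the gate itself limits, it was -0.24. Tyrobp and Fcer1g are also made by some cytotoxic lymphocytes. In stricter gates with no C1q or melanoma UMI, which kept 2682 and 7258 T cells, the ratio was -0.25.

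Of the 97 members, 87 had at least 10 CPM in the T cell gate of at least 1 library, and the other 10 were too low to be counted. At a threshold of 1.5-fold, 29 of the 87 (33.3%) were lower in Tc9, 3 (3.45%) were higher and 55 lay between. Over all 8539 genes at the same minimum, 24.8% were lower and 12.4% were higher. The median log2 ratio was -0.45 over the members and -0.10 over all genes. With scaling by the median ratio 24 members were lower (27.6% against 21.0% of all genes) and 6 higher (6.90% against 16.2%). Without ribosomal protein, mitochondrial and haemoglobin UMIs in the total, 25 of 89 were lower (28.1% against 22.7%) and 6 higher (6.74% against 14.4%). As a mean over cells 17 members were lower (19.5% against 19.8%) and 6 higher (6.90% against 9.33%). With free RNA subtracted by the 4 genes, 14 were lower (16.1% against 19.2%) and 8 higher (9.20% against 11.8%). At a threshold of 2-fold 1 member was lower (1.15% against 12.4%). So the larger share of lower members than of lower genes in general was not present as a mean over cells, with free RNA subtracted by the 4 genes or at 2-fold, nor with cells thinned to 2000 UMIs (18.6% against 20.4%).

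**Figure D2:**
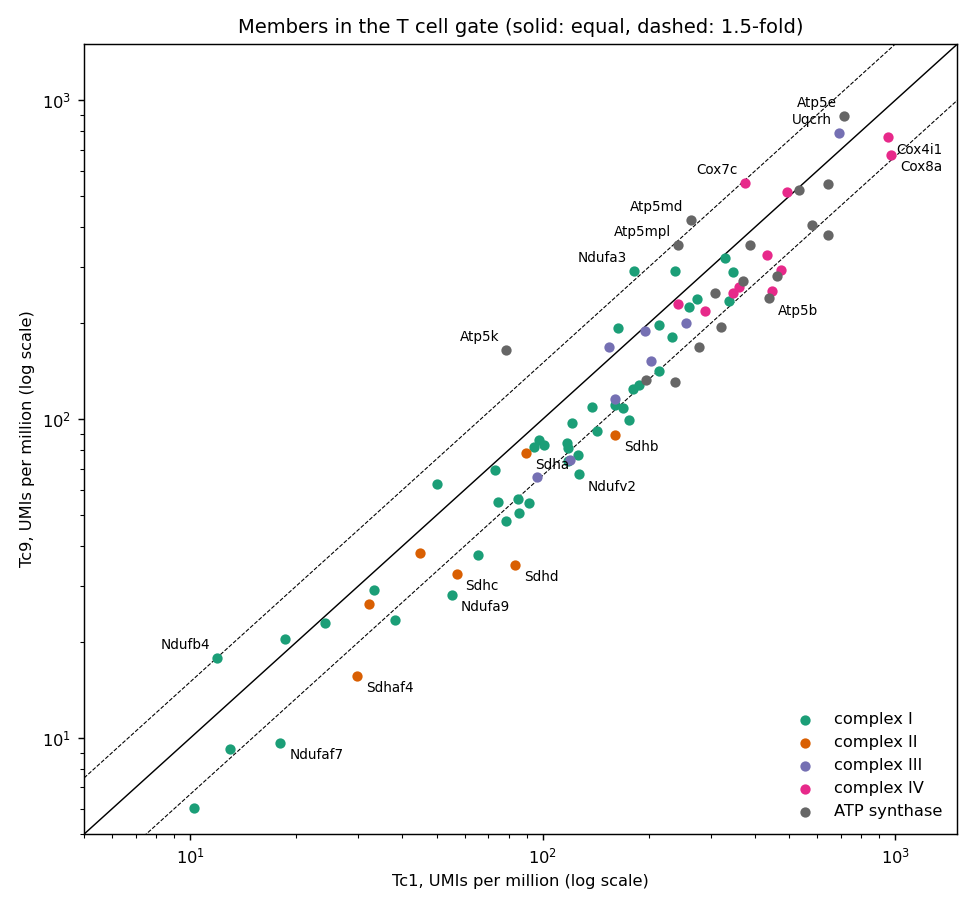
The 87 members with at least 10 CPM in the T cell gate, 1 point per gene, as CPM in Tc1 (x) and Tc9 (y), both on log scales; the solid line marks equal levels and the dashed lines 1.5-fold. Most points lie below the solid line, with Sdhd farthest below at 83.2 against 34.9 CPM, and Atp5k farthest above at 78.7 against 165 CPM.

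Complex II stood lowest as a group. Of its 7 members at the minimum, 4 (57.1%) were at least 1.5-fold lower in Tc9 and none was higher, against 24.8% and 12.4% of all genes. Their median log2 ratio was -0.80. Sdhd, 1 of the membrane anchors of the complex, had 83.2 CPM in Tc1 and 34.9 in Tc9 (log2 ratio -1.25, -1.34 to -1.17). Among the 87 members at the minimum it was the only one at least 2-fold lower, and a Sdhd UMI was found in 36.4% of Tc1 and 18.2% of Tc9 T cells. Sdhb, the iron-sulphur subunit, had 160 and 89.3 CPM (-0.84, -0.90 to -0.79). Sdhc, the other anchor, had 56.9 and 32.8 CPM (-0.80, -0.89 to -0.71). Sdha, the flavoprotein that oxidises succinate, differed less, with 89.6 and 78.3 CPM (-0.19, -0.26 to -0.13). Among the assembly factors, Sdhaf4 had 29.8 and 15.7 CPM (-0.93, -1.06 to -0.79). Sdhaf1 had 44.8 and 37.98 CPM (-0.24), Sdhaf2 32.2 and 26.3 (-0.29), and Sdhaf3 stayed under the minimum at 8.49 and 6.14.

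The region before the start is shown for 5 members that differed in their ratio: Sdhd and Sdhb of complex II, which were lower in Tc9, Sdha of the same complex, which was not past 1.5-fold, and Atp5k and Atp5md, which were higher. These are 200 bases up to the base before the annotated start, 5′ to 3′ on the gene's strand, from RefSeq (GRCm38.p6). Capitals mark GCGCANGCG (the core of the NRF1 motif), CCGGAAG (an ETS factor motif) and TATAAA, on either strand. NRF1 and the ETS factor GABP are known regulators of respiratory genes.
Sdhd, chr9:50603850-50604049, minus strand: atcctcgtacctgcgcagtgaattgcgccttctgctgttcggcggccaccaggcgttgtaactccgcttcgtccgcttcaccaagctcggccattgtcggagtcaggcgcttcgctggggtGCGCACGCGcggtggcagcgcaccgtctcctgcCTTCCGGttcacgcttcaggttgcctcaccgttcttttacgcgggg
Sdhb, chr4:140961071-140961270, plus strand: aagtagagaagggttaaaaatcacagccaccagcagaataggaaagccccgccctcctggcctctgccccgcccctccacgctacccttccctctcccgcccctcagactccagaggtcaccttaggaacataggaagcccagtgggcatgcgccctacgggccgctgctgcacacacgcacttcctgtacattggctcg
Sdha, chr13:74350241-74350440, minus strand: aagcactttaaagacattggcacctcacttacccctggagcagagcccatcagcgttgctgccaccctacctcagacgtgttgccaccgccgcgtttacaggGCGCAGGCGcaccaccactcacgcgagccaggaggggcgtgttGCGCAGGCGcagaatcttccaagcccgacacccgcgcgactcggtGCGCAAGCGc
Atp5k, chr5:108434400-108434599, minus strand: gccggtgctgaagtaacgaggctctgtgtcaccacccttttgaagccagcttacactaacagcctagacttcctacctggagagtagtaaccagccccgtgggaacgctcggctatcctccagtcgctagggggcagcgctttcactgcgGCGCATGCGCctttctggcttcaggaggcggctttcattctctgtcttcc
Atp5md, chr19:47090648-47090847, minus strand: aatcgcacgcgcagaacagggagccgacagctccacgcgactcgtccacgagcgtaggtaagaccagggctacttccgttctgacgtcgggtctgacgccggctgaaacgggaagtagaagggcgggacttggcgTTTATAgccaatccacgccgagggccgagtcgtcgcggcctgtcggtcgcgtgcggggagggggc
In these 200 bases Sdhd holds an NRF1 and an ETS motif, Sdha 3 NRF1 motifs, Atp5k an NRF1 motif that reads alike on both strands, and Atp5md a TATAAA. Sdhb, Atp5k and Atp5md have an ETS motif in the longer window of 300 bases counted next, outside the letters shown. The NRF1 motif was thus present in a member that was lower and in one that was higher in Tc9.

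Of the 97 members, 79 had a RefSeq window from 250 bases before to 50 after the start. GCGCANGCG was in 24 of them (30.4%), against 7.03% of the windows of all 27025 gene symbols of any kind. CCGGAAG was in 22 (27.8% against 9.93%), AAGATGGC, a YY1 motif, in 10 (12.7% against 3.19%), and TATAAA in 9 (11.4% against 15.7%). Both strands were searched and motifs could overlap. Among the members at the minimum in T cells, the median log2 ratio was -0.49 for the 23 with the NRF1 motif and -0.45 for the 51 without, and -0.36 for the 21 with the ETS motif against -0.49 for the 53 without. A match of letters is a description and shows no binding.

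Complex I, which oxidises NADH, had 44 of its 46 members at the minimum in T cells. Of these 16 (36.4%) were lower in Tc9 and 1 (2.27%) was higher, against 24.8% and 12.4% of all genes. In T cells with Cd4 and without Cd8a or Cd8b1 UMIs, 9 of 43 (20.9%) were lower, below the 24.2% of all genes there. In those with Cd8a or Cd8b1 and no Cd4, 13 of 44 (29.5%) were lower, against 25.2% of all genes. In the whole T cell gate the median log2 ratio of complex I was -0.48. Its 3 most abundant members in the Tc1 T cell gate were Ndufa13 (347 CPM in Tc1, 289 in Tc9), Ndufa4 (337 and 234) and Ndufa6 (328 and 319), none of them past 1.5-fold. Ndufa4 is named for complex I but its protein is known to sit in complex IV. The lowest ratios were those of Ndufa9, a subunit near the junction with the membrane arm, with 55.1 and 28.2 CPM (-0.97, -1.07 to -0.87), and Ndufv2, an iron-sulphur subunit of the NADH-binding module, with 126 and 67.1 CPM (-0.91, -0.98 to -0.85). Ndufaf7, an assembly factor, had 18.02 and 9.66 CPM (-0.90, -1.07 to -0.73). In the other direction Ndufa3, a small accessory subunit, had 181 CPM in Tc1 and 292 in Tc9 (0.69, 0.65 to 0.73). Ndufb4, another accessory subunit, had 11.9 and 17.8 CPM (0.57, 0.42 to 0.74).

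In complex III all 8 members were at the minimum and 1, the core subunit Uqcrc1, was past 1.5-fold, with 120 CPM in Tc1 and 74.2 in Tc9 (-0.69, -0.75 to -0.63). Uqcrh, the small hinge subunit, was the most abundant, with 694 and 790 CPM (0.19, 0.16 to 0.21). Uqcrq had 254 and 200 CPM (-0.35) and Uqcrb 203 and 152 (-0.42). Uqcrc2 had 96.2 and 65.8 CPM (-0.55). The near balance of the complex III sum thus held its most abundant member slightly higher in Tc9, while the median log2 ratio of its members was -0.38. The Rieske subunit Uqcrfs1 had 160 and 116 CPM (-0.47).

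In complex IV, cytochrome c oxidase, 11 of 18 members were at the minimum. Of these 18.2% were lower in Tc9, below the 24.8% of all genes, and none was higher. The 2 past 1.5-fold were Cox5a, with 447 CPM in Tc1 and 252 in Tc9 (-0.82, -0.86 to -0.79), and Cox5b, with 473 and 293 CPM (-0.69, -0.72 to -0.66). Cox8a had 970 and 675 CPM (-0.52) and Cox4i1, the common isoform of the largest nuclear subunit, 951 and 764 (-0.31). Cox6c, with 492 and 517 CPM, differed little (0.07, 0.04 to 0.10). Cox7c had 374 and 551 CPM (0.56, 0.53 to 0.59). The other ubiquitous isoforms lay between these, with log2 ratios of -0.41 for Cox6b1, -0.47 for Cox6a1, -0.49 for Cox7a2, -0.40 for Cox7b and -0.07 for Cox7a2l, a factor of respiratory supercomplexes.

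ATP synthase had all 17 members at the minimum, 6 (35.3%) lower and 2 (11.8%) higher in Tc9, against 24.8% and 12.4% of all genes. The catalytic subunit gene Atp5b had 438 CPM in Tc1 and 239 in Tc9 (-0.87, -0.91 to -0.84). Atp5o, of the peripheral stalk, had 237 and 131 CPM (-0.85). Of the 3 genes of the c-ring, which encode the same mature protein, 1 was past 1.5-fold: Atp5g3 had 646 and 377 CPM (-0.78). Atp5g2 had 579 and 406 CPM (-0.51) and Atp5g1 197 and 132 (-0.57). Atp5h, a stalk subunit and among the 3 most abundant, had 642 and 545 CPM (-0.24).

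Among the members at the minimum, the highest ratio was that of a small subunit of ATP synthase. Atp5k (subunit e, chr5:108433246-108434399) had 78.7 CPM in Tc1 and 165 in Tc9 (1.07, 1.01 to 1.13), and a UMI of it was found in 35.9% and 57.3% of T cells. Atp5md had 263 and 420 CPM (0.68, 0.64 to 0.71), Atp5mpl 242 and 352 (0.54, 0.51 to 0.58), and Atp5e, the epsilon subunit of the central stalk, 715 and 895 (0.32, 0.30 to 0.34). Atp5k, Atp5md and Ndufa3 were the 3 members at least 1.5-fold higher.

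The difference was present in the subsets of the T cell gate, and its size varied. T cells with Cd4 and without Cd8a or Cd8b1 UMIs, 1395 in Tc1 and 4263 in Tc9, had a sum of 18792 and 16555 CPM (-0.18, -0.19 to -0.17). T cells with Cd8a or Cd8b1 and no Cd4 had 21523 and 18077 CPM (-0.25, -0.26 to -0.24). In the first of these, 21 of 86 members were at least 1.5-fold lower in Tc9 against 24.2% of all genes, and 5 were higher against 10.8%. So in Cd4 T cells the share of members past the threshold on the lower side was near that of all genes, and their median was -0.35 against -0.11. In the Cd8 T cells 28 of 87 were lower against 25.2% of all genes, and 4 were higher against 14.7%.

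Complex II kept the largest difference among the complexes in both: 493 and 312 CPM in Cd4 T cells (-0.66, -0.71 to -0.61) and 521 and 348 in Cd8 T cells (-0.58, -0.66 to -0.50). Sdhd had 74.7 and 34.7 CPM in Cd4 T cells (-1.11, -1.25 to -0.96) and 89.5 and 41.6 in Cd8 T cells (-1.10, -1.34 to -0.88). Atp5k had 70.1 and 160 CPM in Cd4 T cells (1.19, 1.07 to 1.31) and 85.0 and 178 in Cd8 T cells (1.07, 0.94 to 1.19). Sdhaf1 differed between the subsets, at -0.86 (-1.01 to -0.70) in Cd4 T cells and 0.44 (0.21 to 0.67) in Cd8 T cells. It was not alone in this: Uqcrq had -0.37 and 0.15, and Ndufa9 -0.68 and -1.46. Of the 87 members at the minimum in the T cell gate, 80 had the same direction in both subsets.

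Among Cd4 T cells, those with a Foxp3 UMI (the marker of regulatory T cells; 180 cells in Tc1 and 610 in Tc9) had more member RNA than those without Foxp3, naive or cycling markers in both libraries. Cycling cells were not taken out of the Foxp3 set, and its median depth was 8911 against 3520 UMIs in Tc1 and 6615 against 5281 in Tc9. The sums were 21033 against 18195 CPM in Tc1 and 17418 against 16310 in Tc9. Complex II differed most there, with 605 against 442 CPM in Tc1 (log2 ratio 0.45, 0.35 to 0.56) and 389 against 289 in Tc9 (0.43, 0.35 to 0.51). Cd4 T cells with both Ccr7 and Lef1, a naive marker pair, had the lowest sums of the 7 subsets, 16603 CPM in Tc1 and 15877 in Tc9. Haemoglobin genes had 6096 CPM in these Tc1 cells, and their part was not tested. T cells with a Mki67 or Top2a UMI, which mark division, numbered 1569 in Tc1 and 1556 in Tc9, against 3986 and 5923 others. The part of this mix in the ratio of the whole T cell gate was not tested. Those with such a UMI had 22259 CPM against 18595 in the others in Tc1 (0.26, 0.25 to 0.27), and 17434 against 16587 in Tc9 (0.07, 0.06 to 0.08). Such a UMI is more often found in deep cells, and the median depths were 9240 against 4366 UMIs in Tc1 and 6541 against 5186 in Tc9. Their part in the result was not tested.

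**Figure D3:**
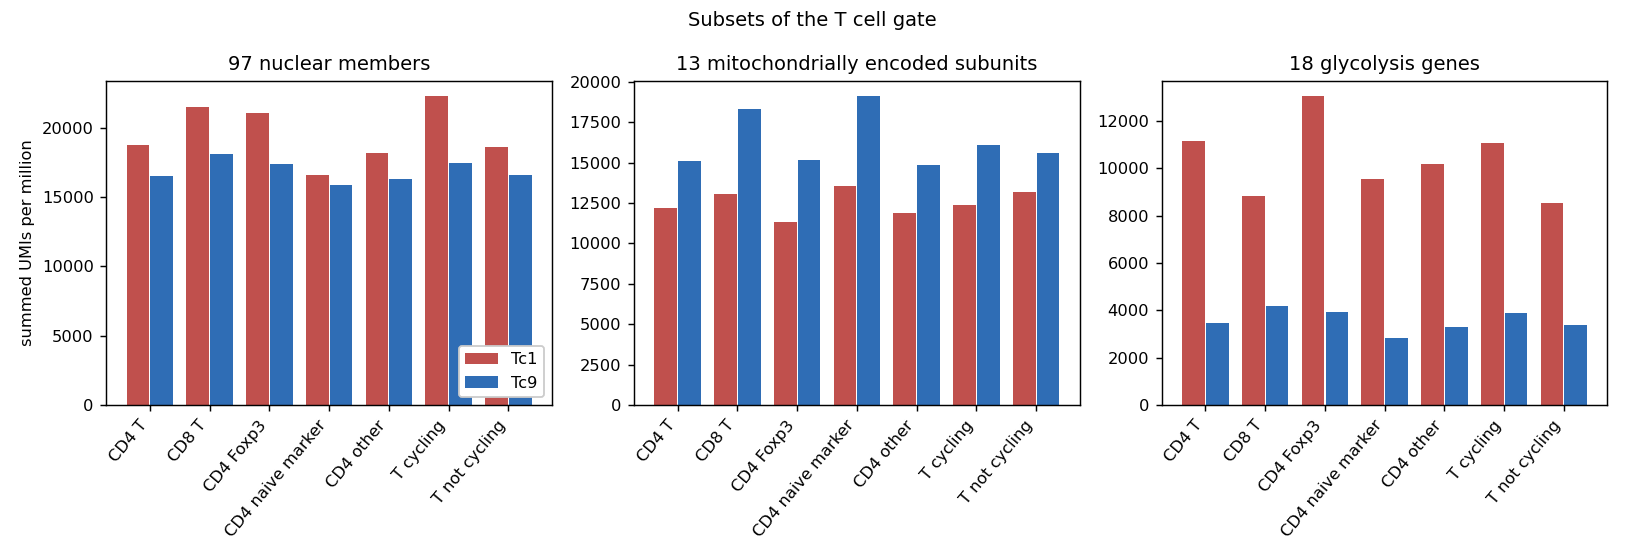
Summed levels (CPM, linear axes from 0) of the 97 members, the 13 mitochondrially encoded subunits and the 18 glycolysis genes in 7 subsets of the T cell gate, by library. The member bars of Tc9 are below those of Tc1 in each subset (16555 against 18792 CPM in Cd4 T cells), the mitochondrially encoded bars are above (15070 against 12205 CPM) and the glycolysis bars are below (3473 against 11133 CPM).

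The partner subunits encoded by mitochondrial DNA went the other way. Their 13 genes summed to 12801 CPM in the Tc1 T cell gate and 15743 in Tc9 (0.30, 0.29 to 0.30), so that there were 1.58 nuclear member UMIs per mitochondrially encoded subunit UMI in Tc1 and 1.07 in Tc9. Of these 13, 1 (7.69%) was at least 1.5-fold higher, mt-Nd3 (52.6 and 169 CPM, 1.68), and none was lower. Of all genes 12.4% were higher and 24.8% lower. Mitochondrial transcripts also vary with the quality and handling of cells, and their part was not tested. Cytochrome c (Cycs), the carrier between complexes III and IV, had 240 and 136 CPM (-0.82, -0.86 to -0.77), and Cyc1, the cytochrome c1 subunit of complex III that the symbol rule leaves out, 100 and 54.5 (-0.88, -0.95 to -0.81).

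The lists of related genes showed lower levels in Tc9 for enzymes of the same organelle and of glycolysis. Over all genes at the minimum, 24.8% were lower and 12.4% higher. In the citrate cycle 6 of 13 genes (46.2%) were lower and none higher. Among them were Fh1 (fumarase, the step after complex II) with 33.3 and 13.5 CPM (-1.30) and Mdh2 (malate dehydrogenase) with 218 and 129 (-0.75). Of 77 mitochondrial ribosomal protein genes 47 (61.0%) were lower and 1 (1.30%) higher, with a sum of 4694 and 3373 CPM (-0.48). Of 17 glycolysis genes 13 (76.5%) were lower and none higher, with a sum of 9678 and 3541 CPM (-1.45, -1.46 to -1.44), including Gapdh (3600 and 1041) and Slc16a3, a lactate exporter (81.1 and 12.8). Members per glycolysis UMI were therefore 2.09 in Tc1 and 4.75 in Tc9. Of 14 complex IV assembly genes at the minimum 2 (14.3%, below the share of all genes) were lower, Cox19 (23.8 and 12.8 CPM) and Coa3 (86.6 and 46.8). Cox17, a copper chaperone, had 224 and 302 CPM (0.43). None of the 7 measured genes of mitochondrial biogenesis passed 1.5-fold, Nrf1 having 50.4 and 59.2 CPM and Tfam 25.4 and 20.7. Cytosolic ribosomal protein genes summed to 197297 and 227598 CPM (0.21). These values are of the whole T cell gate. In Cd4 T cells 28 of 75 mitochondrial ribosomal protein genes (37.3%) and 5 of 13 of the citrate cycle (38.5%) were lower. Of the glycolysis genes 14 of 17 (82.4%) were lower there, and of all genes 24.2%.

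In the other immune gates the Tc9 library had few cells, so the members are given as sums. In the NK gate (27 and 48 cells) the sum was 22507 and 19163 CPM (-0.23, -0.29 to -0.18), and complex II 581 and 411 (-0.50, -0.85 to -0.14). In stricter gates, which left 7 Tc1 cells, the NK ratio was -0.12. In the macrophage gate (1749 and 40 cells) complex II had 539 and 494 CPM, and the Tc9 interval of 356 to 668 CPM included the Tc1 value. The sum of the members there was 21352 and 18971 CPM (-0.17, -0.24 to -0.10), with median depths of 5946 and 1820 UMIs. After each cell was thinned to 2000 UMIs, which left 16 macrophages in Tc9, this ratio was -0.34, and at no less than 1000 genes per cell it was -0.28. With median ratio scaling it was -0.74, where the median of all genes lay at 0.63. The Tc9 macrophage gate held 84970 UMIs in all. At that depth the floor of 3 counts given to a gene at 0 lies above the minimum of 10 CPM. Its part in that median, and so in the scaled ratio, was not tested. In the dendritic gate (151 and 34 cells) the sum was 20002 and 19827 CPM (-0.01, -0.06 to 0.03), and without ribosomal protein, mitochondrial and haemoglobin UMIs in the totals the sign turned to 0.06. Its complexes differed in direction, with complex II lower in Tc9 at 496 and 367 (-0.43, -0.76 to -0.13), complex III higher at 1849 and 2270 (0.30, 0.17 to 0.42) and complex IV lower at 5500 and 4797 (-0.20, -0.28 to -0.11).

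Within Tc1 the macrophage and T cell gates were the 2 largest. The macrophage sum was 1.05 times that of T cells (log2 ratio 0.08, 0.07 to 0.08), and without ribosomal protein, mitochondrial and haemoglobin UMIs in the totals the sign turned to -0.06. The ratio was 0.34 with median ratio scaling, 0.21 as a mean over cells and 0.18 with cells thinned to 2000 UMIs. Macrophages had 118926 CPM of cytosolic ribosomal protein genes against 197297 in T cells. Of 89 members at the minimum, 7 (7.87%) were at least 1.5-fold higher in macrophages and 7 lower, against 19.7% higher and 34.1% lower among all genes. The lowest ratios were those of Sdhaf1 (44.8 CPM in T cells, 17.5 in macrophages, -1.35), Cox7a2l (241 and 139, -0.80), Ndufaf5 (12.9 and 7.96, -0.70) and Uqcrh (694 and 434, -0.68). The highest were those of Cox7a1, a muscle-type isoform (3.31 and 13.6 CPM, 2.04), Cox6a2 (5.13 and 10.7, 1.06), Ndufc1 (101 and 189, 0.90) and Sdhc (56.9 and 98.3, 0.79). Cox7a1 and Cox6a2 reached the minimum of 10 CPM only in macrophages, and Ndufaf5 only in T cells, so they entered the ranking through 1 gate. Over all kept Tc1 barcodes 72 had at least 3 Cox6a2 UMIs each and together held 92.9% of its UMIs. Of these 72 barcodes, 8 were in the macrophage gate. Both directions included genes of complex II: an assembly factor lower and an anchor subunit higher.

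Melanoma cells carried a higher level of nearly the whole set. Their sum was 2.23 times that of T cells of the same library (log2 ratio 1.16, 1.15 to 1.16) and 2.12 times that of macrophages (1.08, 1.07 to 1.09). Over T cells the log2 ratio was 1.07 for ATP synthase, 1.16 for complex IV and 1.246 for complex I, and complex II had 1201 against 505 CPM. Of 89 members 77 were at least 1.5-fold higher than in T cells and 3 lower (Sdhaf1, Cox7a2l and Sdhaf2), against 37.8% and 29.1% of all genes. Over macrophages 72 of 91 were higher and 2 lower, against 47.5% and 25.2%. The 13 mitochondrially encoded subunits did not share the difference, at 12060 CPM in melanoma cells, 12801 in T cells and 11952 in macrophages, so that nuclear members per mitochondrially encoded UMI were 3.75, 1.58 and 1.79. Melanoma cells were also much deeper, with a median of 41678 UMIs, and had no gate in Tc9 to compare with.

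The member with the highest ratio was Ndufa4, with 337 CPM in T cells, 329 in macrophages and 1803 in melanoma cells (2.46, 2.41 to 2.50, over macrophages). Sdhaf3, an assembly factor of complex II, had 8.76 CPM in macrophages and 42.9 in melanoma cells (2.29, 1.99 to 2.61), and the accessory subunit Ndufa5 77.1 and 363 (2.24, 2.13 to 2.34). Atp5g3 was the most abundant of all members there, at 2227 CPM against 597 in macrophages. At the other end Cox6a2 had 10.7 CPM in macrophages and 2 UMIs (0.194 CPM) in melanoma cells, Cox7a1 had 13.6 and 5.33 CPM (-1.35), and Sdhaf2 29.1 and 20.7 (-0.49). Sdhaf3 reached 10 CPM only in melanoma cells, and Cox6a2 and Cox7a1 only in macrophages, so these entered the ranking through 1 gate. Cycs followed the members, with 302 CPM in macrophages and 1336 in melanoma cells (2.14). Glycolysis genes were higher too, with a sum of 13949 and 35570 CPM (1.35).

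**Figure D4:**
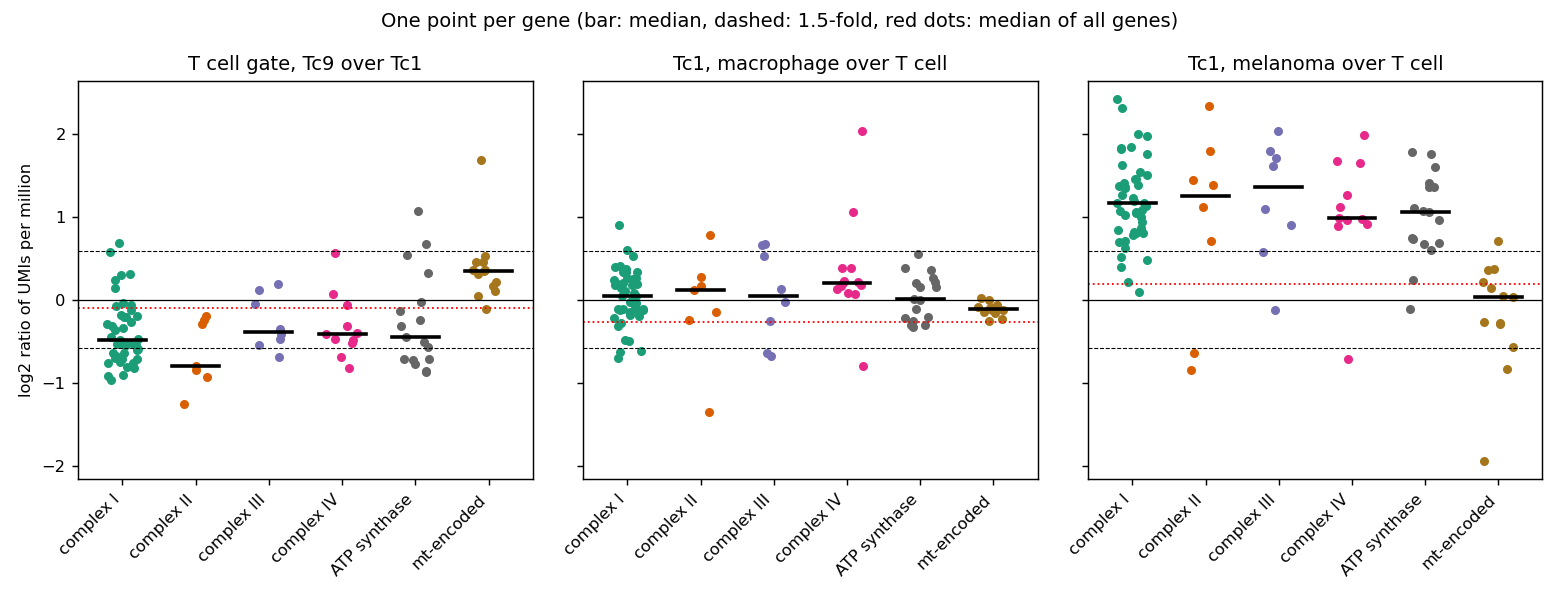
Log2 ratios of CPM, 1 point per gene at or above 10 CPM, by complex and for the mitochondrially encoded subunits, in the T cell gate (Tc9 over Tc1) and, within Tc1, for macrophages and melanoma cells over T cells; black bars are medians, dashed lines 1.5-fold and the red dotted line is the median of all genes. Complex II lies lowest on the left (median -0.80). On the right the medians of the nuclear complexes lie above 1.5-fold, as do 77 of 89 members, while the mitochondrially encoded subunits have a median of 0.03.

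Among the isoform genes, Cox6a2 and Ndufa4l2 were concentrated in small sets of cells. Cox6a2, the heart and skeletal muscle isoform of Cox6a1, had 137 CPM in the dendritic gate of Tc1, from 268 UMIs in 15 of 151 cells. All 15 had a UMI of Siglech, a marker of plasmacytoid dendritic cells, which 1 of the other 136 cells had. Over all kept Tc1 barcodes 72 had at least 3 Cox6a2 UMIs and held 92.9% of its 1148 UMIs. Of these 65 had a Siglech UMI, which was found in 0.143% of the other barcodes. In Tc9 the dendritic gate, of 34 cells, had 190 CPM, and 10 kept barcodes had at least 3 Cox6a2 UMIs, 3 of them with Siglech. Of these 10 barcodes, 2 were in the dendritic gate and 7 in the T cell gate. The 5.13 CPM of Cox6a2 in the Tc1 T cell gate included 15 barcodes with at least 3 UMIs, and no doublet caller was run.

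Ndufa4l2, a paralogue of Ndufa4 known to be induced in hypoxia, had 123 CPM in the dendritic gate of Tc1, from 240 UMIs in 9 cells, and Cox4i2, a lung and smooth muscle isoform of Cox4i1, 28.7 CPM from 56 UMIs in 7 cells. All 9 cells with Ndufa4l2 had a UMI of Col1a1, a collagen gene of fibroblasts, 7 had Pdgfrb, 3 had the leukocyte gene Ptprc and 8 had Fscn1, a gate marker that is not restricted to dendritic cells. Xcr1 and Clec9a, which are more specific to dendritic cells, were each found in 1 of the 9. Over all kept barcodes 32 of 52 with at least 3 Ndufa4l2 UMIs in Tc1, and 9 of 9 in Tc9, had Col1a1, against 1.64% and 1.49% of the others. With a Ptprc UMI required, 124 and 27 dendritic gate cells were left, and the sum ratio of that gate was -0.06. These markers were chosen after the values were seen. Cox6b2, a testis isoform, stayed at 2.53 CPM in Tc1 T cells, Cox8b had 3 and Cox7b2 3 UMIs in all kept Tc1 barcodes, and Cox8c had none in either library.

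Cells within a gate differed in their member share beyond the sampling of molecules. At 2000 UMIs per cell the median T cell had 37 member UMIs in Tc1 (quartiles 30 and 44) and 33 in Tc9 (27 and 39). The medians were 42 and 39 in the NK gate, 43 in Tc1 macrophages, 40 and 39 in the dendritic gate, and 90 in melanoma cells (75 and 103). The SD over the mean was 0.308 in Tc1 T cells and 0.287 in Tc9 T cells, against 0.163 and 0.174 if molecules were drawn at random alone. The 10th to 90th percentiles of Tc1 T cells, 24 to 52 UMIs, overlapped most of those of Tc9, 22 to 45.

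**Figure D5:**
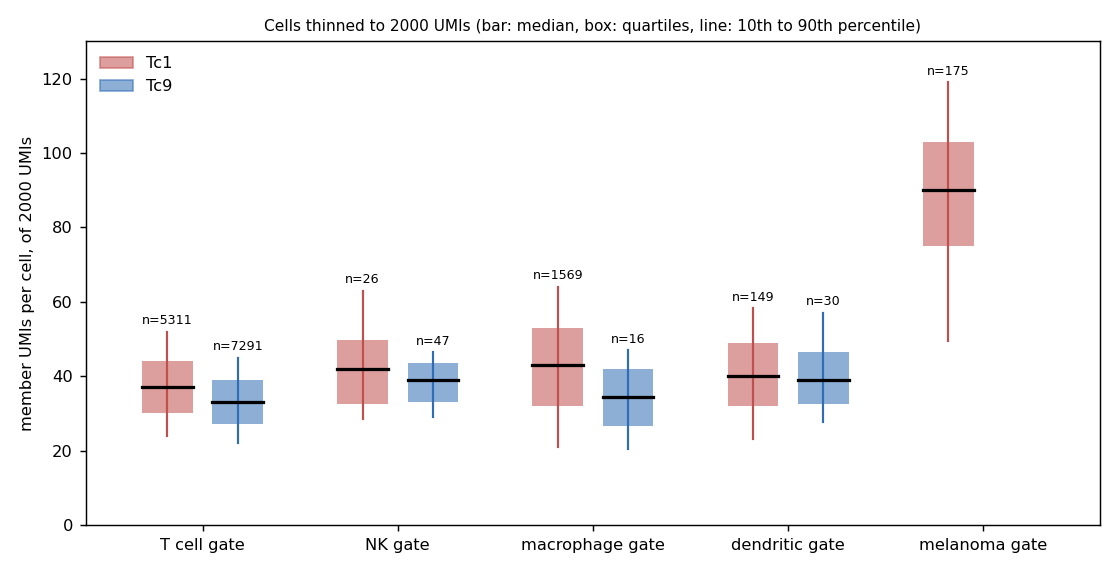
Member UMIs per cell after thinning each cell to 2000 UMIs, by gate and library; black bars are medians, boxes the quartiles and lines the 10th to 90th percentiles, with the number of cells above. The T cell boxes of Tc1 (median 37) and Tc9 (median 33) overlap, and the melanoma box of Tc1 (median 90) lies above all others.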

How the data were processed

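RNA was captured with the 10x 5′ v2 chemistry. The authors' counts came from Cell Ranger 7.0.0 and the mouse build mm10 (GRCm38), per the submitters' processing notes and the file headers. The deposited filtered matrices hold raw counts of UMIs per gene and barcode. Filters asked for 500 or more genes in a barcode and a mitochondrial share of UMIs no higher than 10%. Gates used marker genes with UMI limits set with the files in hand: T cell, at least 2 Cd3d, Cd3e or Cd3g UMIs; NK, at least 2 of 5 genes and no Cd3 or Trac; macrophage, at least 3 C1q UMIs and a second marker; dendritic, at least 2 marker and 5 class II UMIs; melanoma, at least 10 UMIs of at least 2 of 5 genes and no Ptprc. Other types' C1q or melanoma genes were limited to 0.1% of UMIs. No doublet caller was run, and no kept barcode fell into 2 gates.

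Summed UMIs per total were compared as log2 ratios with exact conditional intervals at 95%, which treat UMIs of a cell as independent and so are too narrow. A gene at 0 took a floor of 3 counts. Genes at 10 CPM or more in a compared profile were counted at 1.5-fold. The ratio code was tested on simulated data. Named genes were the Sdh members, the isoform genes, the 3 most abundant per complex and the highest and lowest ratios (6 each in T cells, 4 for macrophages and 3 for melanoma cells), with fixed lists of related genes, and further members by role. Members and lists were chosen with earlier results of these data known. Receptor contigs, as deposited by the authors, were used only to find TRB chains of both libraries. Positions and promoters came from RefSeq GRCm38.p6: 97 members matched by symbol or synonym and 79 had a promoter window. Reads shared with processed pseudogenes could shift single genes. Python 3.11.15 was used with numpy 2.4.6, scipy 1.17.1 and pandas 2.3.3.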

Additional observations from a re-analysis of the deposited data

How the results depend on the processing

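The T cell sum (log2 ratio -0.27) kept its sign under all 12 alternatives, and 3 of them stayed within its counting interval. It was -0.209 without ribosomal protein, mitochondrial and haemoglobin UMIs in the total, -0.167 with median ratio scaling, -0.174 as a mean over cells, -0.180 thinned, -0.248 in stricter gates, -0.183 in Cd4 T cells and -0.066 with free RNA subtracted. Chosen after seeing the data, free RNA from Apoe or C1q alone gave -0.198 and -0.243. The NK sum was -0.157, -0.166, -0.133, -0.141 and -0.124 under the first 5 of these in the same order. The macrophage sum was -0.744 with median ratio scaling, where all genes had a median of 0.63, -0.335 thinned and -0.282 at 1000 genes. The part of the floor for genes at 0 in that median was not tested. The dendritic sum was 0.058 without those UMIs, -0.221 with median ratio scaling and -0.060 with Ptprc required. Macrophages over T cells gave -0.063, 0.335, 0.207, 0.180 and 0.092 under the first 5, and 0.066 at 1000 genes. The 29 lower members (33.3% against 24.8% of all genes) were 1 at 2-fold (1.15% against 12.4%), 17 as a mean over cells (19.5% against 19.8%), 16 thinned (18.6% against 20.4%) and 14 with free RNA subtracted (16.1% against 19.2%), so that the excess over all genes was not present under these 4. The 3 higher members (3.45% against 12.4%) were 5 with no minimum (5.21% against 19.9%) and 1 at 2-fold (1.15% against 4.20%). They were 6 without those UMIs (6.74% against 14.4%), 6 with median ratio scaling (6.90% against 16.2%) and 6 as a mean over cells (6.90% against 9.33%). Thinned they were 6 (6.98% against 9.78%), and in Cd4 T cells 5 (5.81% against 10.8%). With free RNA subtracted they were 8 by the 4 genes (9.20% against 11.8%), 6 by Apoe (6.90% against 11.5%) and 6 by C1q (6.90% against 11.8%). The members' share lay below that of all genes in each of these. Where no value shows it, the cause was not tested. Sdhd and Atp5k, for example, stayed between -1.26 and -1.004 and between 1.05 and 1.19. No paired analysis was possible because each group has 1 library. The NK gates (27 and 48 cells) and the macrophage and dendritic gates of Tc9 (40 and 34 cells) rest on few cells, and their single genes were not compared.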

Other observations

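Some genes beside the symbol rule belong to the same machinery and are given as values. Ndufb1-ps, the mouse gene of a complex I accessory subunit that is named as a pseudogene, had 142 CPM in the Tc1 T cell gate and 284 in Tc9, 183 and 518 in the macrophage gate and 176 and 640 in the dendritic gate, on 44 and 162 UMIs in the last 2 Tc9 gates. Atpif1, which encodes the inhibitor of ATP synthase, had 183 and 117 CPM in T cells, 395 in Tc1 macrophages and 484 in melanoma cells. Ucp2, a mitochondrial carrier of immune cells, had 578 and 376 CPM in T cells, 895 in Tc1 macrophages and 57.8 in melanoma cells. Cyc1 had 431 CPM in melanoma cells against 100 in Tc1 T cells.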
